A study of Schizosaccharomyces pombe with 15 samples.

Results

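U6 small nuclear RNA of fission yeast, Schizosaccharomyces pombe, ends in a run of Us that is most often 5 Us long, and some molecules end after fewer. The ends described here kept 1 to 3 Us, with or without a tail made of As alone, and were picked by their sequence. They comprised 52 distinct ends among 77768 in the series, of which 17 had 1 U, 18 had 2 Us and 17 had 3 Us. Together they held 1246841 of the 22706490 reads that listed an end sequence over 19 files, and 1112630 of these reads were in the 3 ends without an A. In addition, 1 line in each file gave reads with no sequence, 243723 in all. It is taken here as U6 with 0 Us and is reported apart, and this reading was not tested. Such ends have been called over-trimmed. The files hold only the final sequence, so how an end came to be short was not tested, and they are called short ends below.

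The 3′ ends were read from total RNA of cells in logarithmic growth at 30 °C. An adapter was ligated to the RNA, U6 was amplified from the cDNA and the products were sequenced. Untagged strains were the single deletions mpn1Δ (strain CAF41), rrp6Δ (CAF374), cid14Δ (CAF382), cid11Δ (CAF118), cid12Δ (CAF28) and cid16Δ (CAF119), the double deletions mpn1Δrrp6Δ (CAF375) and cid14Δmpn1Δ (CAF383), and wt (CAF13). A further library of rrp6Δ and one of wt were made without polynucleotide kinase (PNK), an enzyme that removes 3′ phosphates that block ligation. The other 13 of the 15 libraries were treated with it. Tagged strains were tU6-C36A (CAF586), mpn1Δ tU6-C36A (CAF588), mpn1Δ tU6wt (CAF587) and tU6-wt (CAF585). These cells hold both their own U6 and a tagged copy, and 1 file was made for each form. C36A is a change in the tagged copy, counted from 1 at the first annotated base of U6, in exon 1. How the tagged copy is driven and integrated is not given in the sources used here. Every strain or treatment had 1 library, so no value has a replicate.

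U6 belongs to the core of the spliceosome and is a product of RNA polymerase III, which stops in a run of Ts. The U tail binds the Lsm ring that keeps U6 stable in the nucleus, and a 3′-5′ exonuclease, USB1 in humans and Mpn1 in fission yeast, trims the tail and leaves a modified last nucleotide. Short A tails are added by non-canonical poly(A) polymerases such as Cid14 of the TRAMP complex, which passes RNAs to the nuclear exosome and its exonuclease Rrp6. Cid11, Cid12 and Cid16 are further members of the Cid1 family of nucleotidyltransferases.

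In the ASM294v3 assembly, snu6 occupies 2562276 to 2562419 of chromosome I, minus strand, and an A at 2562275 separates its annotated end from a run of 9 Ts at 2562266 to 2562274. The first 3 Ts, at 2562272 to 2562274, are those that the short ends keep. They are in capitals in the reference sequence of the end of U6, chrI:2562254-2562304, which shows what a full-length transcript could copy:
U6 end, T run and downstream sequence: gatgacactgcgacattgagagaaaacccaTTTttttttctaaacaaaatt
Among the 3576 reads that ran from Ts straight into this downstream sequence, 94.9% had 9 Ts, and the reference holds Ts, not As, after the first 3. Joined to the 12 reference bases before the T run, the ends that carry the results read as follows, with the bases listed in the files in capitals:
0 Us: agagaaaaccca
1 U: agagaaaacccaT
2 Us: agagaaaacccaTT
3 Us: agagaaaacccaTTT
1 U and 1 A: agagaaaacccaTA
2 Us and 1 A: agagaaaacccaTTA
3 Us and 1 A: agagaaaacccaTTTA
3 Us and 2 As: agagaaaacccaTTTAA
1 U and 3 As: agagaaaacccaTAAA

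The files held 408281 to 3966962 reads with an end sequence, and shares below are percentages of these unless another total is named. The exact (Clopper-Pearson) 95% interval of the share of short ends reached no more than 0.131 percentage points on each side. The labels mention no molecular identifiers, so reads are PCR copies and intervals cover counting error only. Libraries differed in how many reads had an N in the end sequence. The share was 0.0217% to 0.0226% in cid11Δ, cid12Δ and cid16Δ, 0.0244% in wt without PNK, at most 0.000142% in the other 7 untagged libraries, and tagged strains had 0.00249% to 0.00598%. In the endogenous files of tagged strains, ends of 4 nt made up 0.0114% to 0.0399% of reads, against 4.10% to 5.20% in tagged U6 and 1.74% to 10.4% in untagged strains. The ends with 3 Us and 1 A, 2 Us and 2 As, and 1 U and 3 As are of this length, so the adenylated shares of these endogenous files are marked as lacking 4-nt ends. The plain 4-U end has this length too, so the adenylated share of ends with 4 or more Us is affected there as well. A difference between 2 libraries was held to a limit of at least 5 percentage points and 1.5 times.

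In wt, short ends held 16.7% of reads and became rarer with each U that was kept. The 1-U end held 7.14%, the 2-U end 5.47% and the 3-U end 3.61%, and the line with no sequence held 3.22% of all reads. Just outside the rule, the 4-U end held 7.35% and the same end with 1 A 1.61%, and the end made of 1 A with no U held 0.101%. Over the 11 untagged libraries, short ends ranged from 1.03% in cid11Δ to 27.7% in cid14Δ, with a median of 11.1%. The order of the ends was not the same everywhere. Reads with 1 U, As included, outnumbered those with 2 Us, and these outnumbered those with 3 Us, in 5 of the 11.

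Loss of cid14 came with more short ends and loss of mpn1 with fewer, each past the limit. Short ends held 27.7% of reads in cid14Δ and 5.87% in mpn1Δ, against 16.7% in wt. In cid14Δ the 1-U end held 12.2%, the 2-U end 9.15% and the 3-U end 5.91%. In mpn1Δ they held 1.98%, 1.56% and 1.33%. Set against wt, the change in cid14Δ was graded along the U run: reads with 0 Us were 2.11 times their share in wt, those with 1, 2 and 3 Us 1.69, 1.66 and 1.58 times, those with 4 Us 1.30 times and those with 5 Us 0.771 times. In mpn1Δ, reads with 0, 1 and 2 Us were 0.310, 0.281 and 0.298 times their share in wt, and those with 3 Us 0.565 times, while those with 4, 5 and 6 Us were 1.27, 0.777 and 2.44 times as frequent. The plain 3-U end alone, at 1.33% against 3.61% in wt, was lower by more than all reads with 3 Us, since many of these carried As in mpn1Δ.

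Deletion of rrp6, which encodes the exosome nuclease, came with a smaller difference. Short ends held 12.4% of reads in rrp6Δ against 16.7% in wt, a difference of -4.31 points under the limit. Without PNK it went the other way, with 18.2% in rrp6Δ against 16.1% in wt, also under the limit. With PNK, reads with 0, 1 and 2 Us in rrp6Δ were 0.684, 0.696 and 0.697 times their share in wt. In cells without mpn1 the share was 6.61% with the rrp6 deletion as well and 5.87% without it, also under the limit, and reads with 0, 1 and 2 Us were 0.975, 1.00 and 1.06 times as frequent. Deletion of cid14 in cells without mpn1 gave 11.1% short ends, against 5.87% in mpn1Δ. This difference of 5.18 points passed the limit by little: it was 4.95 points over all reads and 3.76 points for ends with 1 or 2 Us, both under it. Over short runs the change was graded in the same direction as with mpn1 present, with reads of 0, 1, 2 and 3 Us at 2.65, 2.06, 1.97 and 1.65 times their share in mpn1Δ. Longer runs differed. Reads with 4, 5 and 6 Us were 1.40, 1.03 and 0.666 times their share in mpn1Δ, while in cid14Δ they were 1.30, 0.771 and 0.844 times that in wt.

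Short ends were rare where cid11, cid12 or cid16 was deleted. They held 1.03%, 1.49% and 1.48% of reads, against 16.7% in wt, all past the limit. Low shares were not particular to these strains. Endogenous U6 of the tagged strains tU6-wt and tU6-C36A, whose labels name no deletion, held 4.27% and 1.43%. These are files that lack 4-nt ends, but the plain 1-U end was also lower there, at 1.54% and 0.376% against 7.14% in wt. Why wt and tU6-wt differ was not tested. The loss grew towards shorter runs. Reads with 3 Us were 0.123, 0.196 and 0.137 times their share in wt in cid11Δ, cid12Δ and cid16Δ. Reads with 2 Us were 0.0595, 0.0791 and 0.109 times, and those with 1 U 0.0309, 0.0411 and 0.0475 times. These libraries differ from wt in the share of ends with an N, and whatever lies behind that cannot be told apart from the deletion in this comparison. The wt library made without PNK, which had a like share of N, held 16.1% short ends, but it differs from them in the PNK step.

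Single ends were counted as well. In mpn1Δ, cid12Δ and cid16Δ the fraction of short ends that were at least 2-fold lower was close to that of all ends. Among ends with at least 100 reads in the 2 libraries together, 4 of 13 short ends were at least 2-fold lower in mpn1Δ than in wt, beside 28.8% of all 111 ends. The 3 plain ends were among them, and 2 A-tailed ends, with 3 Us and 1 or 2 As, were at least 2-fold higher. In cid14Δ 0 of 9 short ends were at least 2-fold higher, beside 22.7% of all ends, since the rise of the plain ends stayed below 2-fold, and 3 tails of 2 to 4 As were at least 2-fold lower. No short end of 13 was at least 2-fold lower in rrp6Δ, beside 5.38% of all ends, and the 2 with 3 Us and 1 or 2 As were at least 2-fold higher. In cid11Δ 10 of 16 were lower, beside 47.1% of all ends, in cid12Δ 4 of 21, beside 18.8%, and in cid16Δ 8 of 18, beside 42.7%. All 3 plain ends were among the lower ones in each of these strains, and in cid12Δ 4 ends with 3 Us and 4 to 7 As were at least 2-fold higher. The cid12Δ library had 3966962 reads with an end sequence against 859009 in wt. Such rare tails could thus reach 100 reads mainly through cid12Δ. In cid14Δmpn1Δ 2 of 8 were at least 2-fold higher than in mpn1Δ, beside 17.9% of all ends, and 2, with 3 Us and 2 or 3 As, were at least 2-fold lower. At most 21 of the 52 short ends had enough reads to be counted in any of these comparisons. In each of them an end could reach 100 reads through the 1 library where it was frequent.

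Strains with and without mpn1 can be paired in 5 backgrounds, which gives a spread for its effect on endogenous U6. Short ends were less frequent without mpn1 in 5 of 5 pairs, with a mean of 5.05% in mpn1-deleted strains and 12.5% in their mpn1-positive partners, a difference of -7.44 ± 6.36 points (SD, n = 5 pairs). The differences ran from -16.6 points in the cid14Δ background to -0.515 points in tU6-C36A. The 2 pairs of tagged strains use endogenous files that lack 4-nt ends. In mpn1Δ tU6wt 2274 reads with 3 Us, an A and a C stood beside 3151 short reads. With the final C of 5-nt ends dropped the mean difference was -7.32 points. Reads with 1 U made up 28.9% of short ends without mpn1 and 38.3% with it, lower in 5 of 5 pairs by a mean difference of -9.36 ± 6.27 points. The share with 3 Us was higher without mpn1 in the other pairs but lower in the tU6-C36A background, at 33.4% in mpn1Δ tU6-C36A against 45.4% in tU6-C36A. The line with no sequence averaged 1.06% without mpn1 and 2.97% with it, lower in 5 of 5 pairs. Each of these outcomes had p = 0.063 in a two-sided exact sign-flip test and 0.0781 after Benjamini-Hochberg adjustment over 5 outcomes. With 5 pairs no smaller p is possible, so none could pass 0.05. Over all PNK-treated libraries, the 5 without mpn1 had 5.05 ± 4.32% short ends and the 8 with it 8.30 ± 9.79% (SD), a difference of -3.26 points that did not pass (two-sided exact permutation test, p = 0.548, adjusted 0.568). The 8 include cid11Δ, cid12Δ and cid16Δ with their low shares, and without cid14Δ the difference was -0.492 points.

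In most untagged libraries A tails on short ends became more frequent with each U kept. In mpn1Δ, 2.83% of reads with 1 U, 5.95% of those with 2 Us and 38.6% of those with 3 Us carried As, against 81.5% of those with 4 Us and 87.4% of those with 5 Us. The matching values in wt were 1.67%, 2.07%, 6.09%, 18.7% and 2.48%. In rrp6Δ they were 1.94%, 3.12%, 20.4%, 59.4% and 43.0%. The shares rose from 1 to 2 to 3 Us in 8 of the 11 untagged libraries, and the exceptions were cid11Δ, cid12Δ and cid16Δ. There the share was lowest at 2 Us, with 22.4%, 18.7% and 22.3% in cid11Δ, 23.6%, 22.0% and 26.3% in cid12Δ, and 18.6%, 11.0% and 18.2% in cid16Δ.

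The same was read from single ends. The end with 3 Us and 1 A held 0.737% of reads in mpn1Δ, 0.615% in rrp6Δ and 1.05% in mpn1Δrrp6Δ, and 0.188% in wt. For 2 Us and 1 A the shares were 0.0838%, 0.0962% and 0.0805%, and 0.0919% in wt. With 1 U and 1 A, 0.0408%, 0.0604% and 0.0399% were found, against 0.0815% in wt. All 3 deletion strains thus had more of the end with 3 Us and 1 A than wt, and less of that with 1 U and 1 A. In cid11Δ, cid12Δ and cid16Δ the end with 1 U and 1 A held 0.0251%, 0.0314% and 0.0279%, so it was lower than in wt, but far less so than the plain 1-U end, at 0.174%, 0.228% and 0.281% against 7.14% in wt.

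As a share of short ends, adenylated ones held 17.0% in mpn1Δ (95% interval 16.7 to 17.3) against 2.82% in wt (2.74 to 2.91), past the limit, and 7.44% in rrp6Δ, under it. Without ends of 4 nt, which takes away the end with 3 Us and 1 A, the difference between mpn1Δ and wt was 3.30 points and under the limit. Adenylated ends made up 21.2% of short ends in mpn1Δrrp6Δ against 7.44% in rrp6Δ, and 9.81% in cid14Δmpn1Δ against 1.59% in cid14Δ, both past the limit but not without ends of 4 nt (3.58 and 0.790 points). The 3 strains without cid11, cid12 or cid16 had 21.1%, 24.5% and 15.3%, against 2.82% in wt. These differences passed the limit with and without ends of 4 nt. Of all reads with an end sequence, 3 Us and 1 A made up 0.0858%, 0.119% and 0.0722% there, against 0.188% in wt. Plain 3-U ends were lower by a larger factor, at 0.367%, 0.554% and 0.431% against 3.61%. Tails of at least 2 As held 0.0569%, 0.155% and 0.0773% of these reads, against 0.110%, so cid12Δ was higher. The 3 strains differ from wt in reads with an N, and wt without PNK, with a like share of N, had 9.93% adenylated. Over the 5 background pairs adenylated short ends were higher without mpn1 in 5 of 5, by 16.8 ± 17.8 points (exact sign-flip p = 0.063, adjusted 0.0781), and by 9.24 points without the tU6-wt background. The 2 pairs of tagged strains lack 4-nt ends, and the largest of the differences, 47.1 points, came from one of them. There the end with 3 Us and 4 As alone made up 70.1% of the 1541 adenylated short reads of mpn1Δ tU6wt.

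Short ends were less often adenylated than longer ends in most libraries. Over the 13 PNK-treated libraries, 13.5% of short ends and 35.1% of ends with 4 or more Us carried As, a difference of -21.7 ± 34.1 points (SD, n = 13), lower in 10 of 13 (two-sided sign-flip permutation test over all 8192 sign patterns, p = 0.0459). The differences ranged from -70.2 points in cid14Δmpn1Δ to 21.6 points in cid12Δ, and cid11Δ, cid12Δ and cid16Δ were the 3 that went the other way. The 4 files of tagged strains among the 13 are endogenous ones that lack 4-nt ends. These ends include the plain 4-U end, and 92.9% to 99.9% of the reads with 4 Us left in these files carried As. With tagged U6 in place of these 4 files the call was lost (-19.7 points, permutation p = 0.0640), and tagged U6 of tU6-wt went the other way by 11.7 points. It was also lost with the final C of 5-nt ends dropped (-19.0 points) and with any tail after the Us (-13.5 points). The call depended on single libraries as well. Without cid14Δmpn1Δ, mpn1Δ, mpn1Δrrp6Δ or mpn1Δ tU6-C36A it was lost (permutation p = 0.0918 for each of these 4), as it was without rrp6Δ (permutation p = 0.0825) or mpn1Δ tU6wt (permutation p = 0.0640). These libraries are different strains, so the test describes how general the difference is over strains and not its error in any of them.

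In untagged strains the A tails of short ends were often longer than 1 A. Tails of at least 2 As made up 23.3% of adenylated short reads in wt, against 4.65% of adenylated reads with 4 or more Us, and their share was higher among short ends in 10 of the 11 untagged libraries. The exception was cid14Δmpn1Δ, with 4.02% and 4.56%. Tagged U6 mostly went the other way. The share among short and longer ends was 4.43% and 25.8% in tU6-wt and 1.03% and 5.44% in mpn1Δ tU6wt. It was 2.30% and 7.02% in mpn1Δ tU6-C36A, while tU6-C36A had 66.9% and 24.0%. Among untagged strains tails of at least 2 As were rarest where cid14 was deleted. They made up 3.75% of adenylated short reads in cid14Δ (95% interval 2.96 to 4.69) against 23.3% in wt (22.0 to 24.6), and 4.02% in cid14Δmpn1Δ (3.48 to 4.62) against 13.6% in mpn1Δ (12.9 to 14.2). As a share of reads with an end sequence they held 0.0165% against 0.110%, and 0.0436% against 0.135%, in the same comparisons. Tails of 1 A were not lower to this extent: the end with 1 U and 1 A held 0.122% in cid14Δ against 0.0815% in wt, and the one with 2 Us and 1 A 0.130% against 0.0919%. For 3 Us and 1 A the shares were 0.171% in cid14Δ and 0.188% in wt. The longest A tail with at least 10 reads had 2 As in cid14Δ and 3 As in cid14Δmpn1Δ, against 7 As in wt and 6 As in mpn1Δ, a measure that also depends on depth. These ends read as follows, with 22 reads in cid14Δ and 17 in wt:
cid14Δ, 3 Us and 2 As: agagaaaacccaTTTAA
wt, 1 U and 7 As: agagaaaacccaTAAAAAAA
The longest of all, with 1 U and 11 As, came from wt without PNK and had 11 reads:
wt without PNK, 1 U and 11 As: agagaaaacccaTAAAAAAAAAAA
In cid11Δ, cid12Δ and cid16Δ, tails of at least 2 As made up 26.2%, 42.3% and 34.1% of adenylated short reads, against 23.3% in wt. Of these differences only that of cid12Δ passed the limit, and wt without PNK had 28.5%.

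RNA not treated with PNK was compared in wt and rrp6Δ. In wt, short ends held 16.1% of reads without PNK and 16.7% with it, a difference under the limit whose sign turned when any tail after the Us was allowed. The plain 1-U end held 5.23% without PNK and 7.14% with it, the 2-U end 4.98% and 5.47%, and the 3-U end 4.28% and 3.61%. Adenylated short reads were more frequent without PNK, at 9.93% of short ends against 2.82% with it, past the limit but not without ends of 4 nt (4.04 points). For 2 Us and 1 A the share was 0.295% without PNK and 0.0919% with it, and the end with 3 Us and 1 A 0.666% and 0.188%. The 2 wt libraries differ in reads with an N, so this difference and PNK cannot be told apart there. In rrp6Δ, where both libraries had at most 0.000142% of such reads, short ends held 18.2% without PNK and 12.4% with it, under the limit of 1.5 times at 1.47 times. Reads with 0, 1, 2, 3 and 4 Us were 1.46, 1.48, 1.47, 1.46 and 1.49 times their share with PNK, while those with 5 Us were 0.778 times. Adenylated reads made up 7.65% of short ends without PNK and 7.44% with it.

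In tagged U6, C36A came with more short ends when mpn1 was present. They held 13.5% of tagged U6 in tU6-C36A against 4.50% in tU6-wt, past the limit, though the difference for ends with 1 or 2 Us alone, 4.87 points, was not. For the plain 1-U end the shares were 3.55% against 0.705%, for 2 Us 3.06% against 1.41%, and for 3 Us 6.09% against 1.69%. Of 12 short ends with enough reads, 9 were at least 2-fold higher in tU6-C36A, beside 42.2% of all ends, and 2, with 2 or 3 Us and 1 A, were at least 2-fold lower. The 3 plain ends were among the 9. An end read almost only in tU6-C36A, such as 1 U and 3 As, entered the count through that library. Such an end was bound to be called higher. Endogenous U6 of the same cells had 1.43% in tU6-C36A and 4.27% in tU6-wt, so there the share was lower with the C36A copy present. One A-tailed end stood out: 1 U and 3 As held 2068 reads, 0.349%, in tagged U6 of tU6-C36A and was not listed in that of tU6-wt, where 3 reads would be 0.000247%. It made up 44.4% of the adenylated short reads there. Whether these reads stem from few or many molecules cannot be told.

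Without mpn1, short ends of tagged U6 held 3.36% in mpn1Δ tU6-C36A and 3.60% in mpn1Δ tU6wt, a difference under the limit, and its sign turned for ends with no A (1.41 points). Loss of mpn1 came with fewer short ends in the C36A strain, 3.36% against 13.5%, past the limit, and with 3.60% against 4.50% in the strain with the wild-type tag, under it. In the C36A strain 10 of 11 short ends were at least 2-fold lower, beside 52% of all ends. The 3 plain ends were among the 10. A-tailed ends read almost only in tU6-C36A entered the count through that library and were bound to be called lower. Most of the short ends that remained in mpn1Δ tU6-C36A had 3 Us. Such reads made up 82.8% of the short ends of mpn1Δ tU6-C36A, against 46.9% in tU6-C36A. The plain 1-U end held 0.184% there against 3.55%, and the 3-U end 2.63% against 6.09%.

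The A tails of tagged U6 differed between the tags. Adenylated reads made up 51.3% of short ends in mpn1Δ tU6wt against 15.5% in tU6-wt, past the limit, and 5.66% in mpn1Δ tU6-C36A against 5.84% in tU6-C36A. The 2 C36A values are alike, but their tails differed in length. Tails of 1 A made up 5.53% of short ends in mpn1Δ tU6-C36A and 1.93% in tU6-C36A. Tails of at least 2 As made up 2.30% and 66.9% of adenylated short reads. In tU6-C36A tails of 3 As alone made up 46.4% of them, mostly the end with 1 U and 3 As. In the wild-type tag the end with 3 Us and 1 A held 1.49% without mpn1 and 0.507% with it, and the end with 2 Us and 1 A 0.211% and 0.157%. With C36A the end with 3 Us and 1 A held 0.156% without mpn1 and 0.116% with it. Among short ends the difference between the tags without mpn1 was thus -45.6 points, past the limit. Of tagged reads with 4 or more Us, 62.0% were adenylated in mpn1Δ tU6-C36A and 67.3% in mpn1Δ tU6wt. The tags differed at 4 Us as well, with 31.5% adenylated in mpn1Δ tU6-C36A and 60.3% in mpn1Δ tU6wt. With 5 Us these shares were 62.2% and 73.3%, and with 6 Us 69.7% and 65.0%.

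Tagged and endogenous U6 of the same strain were compared over the 4 tagged strains. Short ends held a mean of 6.24% in tagged and 1.85% in endogenous U6, higher in tagged U6 in 4 of 4 strains by 4.39 ± 5.24 points (SD, n = 4; two-sided exact sign-flip p = 0.13, adjusted over 5 outcomes 0.3125), which is the smallest p that 4 strains allow. Without tU6-C36A the mean difference was 1.84 points. In tU6-wt the difference was 0.233 points, and its sign turned without 4-nt ends, which the endogenous files lack (-0.0867 points), with no A (-0.390 points) and for 1 or 2 Us (-1.07 points). In mpn1Δ tU6-C36A it turned for 1 or 2 Us (-0.0340 points). Adenylated short reads were higher in tagged U6 in 4 of 4 strains, by 5.94 ± 5.27 points (exact sign-flip p = 0.13, adjusted 0.3125), but this comparison lacks the 4-nt ends of the endogenous files. It turned to -7.20 points when 4-nt ends were left out of every file, and to -2.09 points when the final C of 5-nt ends was dropped. The end with 3 Us and 1 A had 1, 0, 29 and 7 reads in the endogenous files of tU6-wt, tU6-C36A, mpn1Δ tU6wt and mpn1Δ tU6-C36A. The same end with a C after it had 153, 62, 2274 and 533 reads there, and 0 reads in each tagged file.

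The line with no sequence, taken as 0 Us, moved with the 1-U end in the untagged strains. It held 6.78% of all reads in cid14Δ, 2.20% in rrp6Δ, 0.998% in mpn1Δ and 0.112%, 0.142% and 0.175% in cid11Δ, cid12Δ and cid16Δ, against 3.22% in wt. It held 2.64% in cid14Δmpn1Δ and 0.973% in mpn1Δrrp6Δ, against 0.998% in mpn1Δ. With 3.22% in wt, a strain below wt could not differ from it by 5 points, so the limit says nothing of a decrease here. The line was 0.0348, 0.0440 and 0.0544 times its share in wt in cid11Δ, cid12Δ and cid16Δ. In tagged strains it followed another order, with 2.36% of endogenous U6 in tU6-C36A against 0.288% in tU6-wt, where the plain 1-U end held 0.376% and 1.54%. Over the 4 strains it held a mean of 1.23% in tagged and 0.838% in endogenous U6, a difference of 0.397 ± 0.854 points (SD, n = 4; exact sign-flip p = 0.5, adjusted 0.5). It was 0.0452 points without tU6-wt and 0.657 points without mpn1Δ tU6-C36A.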

How the data were processed

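The deposited files list raw counts: a line pairs an end, read past the constant part of U6, with how often it was read, per the file contents and the labels, with no normalization by the authors. Per the submitters' processing notes, CASAVA 1.8.2 and cutadapt were used. How reads were filtered and split into tagged and endogenous U6, and the authors' build, is not given in the sources used here. The form of U6 in a tagged strain was taken from the word exogenous or endogenous in a file's name. Per the labels' protocols, 120 pmol of adapter were ligated to 3 µg of RNA.

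Ends of 1 to 3 Ts followed by zero or more As were counted. Their share is of reads with an end sequence. The line with no sequence is given as a share of all reads. Groups came from the sample titles. Libraries with and without mpn1 were compared by exact permutation and sign-flip tests, adjusted over 5 outcomes. No test was made between single libraries. Nothing shows that strains were grown or sequenced together. The tests set a mean difference against the variation between strains or between pairs. With 1 library per strain or treatment, strain, culture and library preparation cannot be told apart.

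The ends described, the lists and the comparisons were chosen with earlier results of these data known. Named are the line with no sequence, the ends of 1 to 3 Us with 0 to 2 As, other short ends with at least 0.1% of a file's reads, the longest A tail with at least 10 reads and the ends next to the rule. The 2-fold counts used ends with at least 100 reads in 2 files together and a floor of 3 reads. An end can reach 100 reads through 1 library alone, so these counts are a description and not a test. Sorting was tested on simulated data, and 100 of 100 simulated libraries had their 4 shares recovered within 0.5 points. This checks the code only, and tails of at least 2 As were not part of it. In 200 simulated draws with no difference, the exact permutation test of 5 against 8 values gave p under 0.05 in 14. Computation used Python 3.11.15, NumPy 2.4.6 and SciPy 1.17.1. Coordinates and U6 sequence are from RefSeq ASM294v3.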

Additional observations from a re-analysis of the deposited data

Results flagged for a closer look

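Of 25 sets of 4 to 8 values examined for a library far from the others, 4 held one, where chance marks about 1 set in 20. Tagged U6 of tU6-C36A stood apart among the 4 tagged files with 13.5% short ends, and with 66.9% of its adenylated short reads in tails of at least 2 As. The end with 1 U and 3 As made up 44.4% of those adenylated reads. The tU6-wt background stood apart among the 5 backgrounds, with a difference of 47.1 points in adenylated short ends between mpn1Δ tU6wt and tU6-wt, in endogenous files that lack 4-nt ends. The library of cid14Δ stood apart among the 8 mpn1-positive libraries with 6.78% of reads without a sequence.

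In 3 of 21 pairs of effects examined, both effects were at least 1 point and of opposite sign, each from 1 library a group, and whether the effects differ was not tested. Deletion of rrp6 moved short ends by -4.31 points in PNK-treated RNA and by 2.09 points in RNA not treated with PNK. It moved their adenylated share by 4.61 points with PNK and by -2.27 points without it. The comparison without PNK uses the wt library with more Ns. C36A moved short ends by 8.98 points in tagged U6 and by -2.84 points in endogenous U6 of the same cells.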

How the results depend on the processing

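In share of short ends, cid14Δmpn1Δ against mpn1Δ fell under the limit over all reads (4.95 points) and for 1 or 2 Us only (3.76 points), as did tU6-C36A against tU6-wt in tagged U6 for 1 or 2 Us (4.87 points). The difference between rrp6Δ without and with PNK passed it without 4-nt ends (6.66 points). Signs turned for wt without against with PNK with any tail (0.126 points), for mpn1Δ tU6-C36A against mpn1Δ tU6wt in tagged U6 without 4-nt ends (1.18 points) and with no A (1.41 points), and in endogenous U6 with the final C of 5-nt ends dropped (-0.323 points) and with any tail (-0.278 points). They turned for tagged against endogenous U6 of tU6-wt without 4-nt ends (-0.0867 points), with no A (-0.390 points) and for 1 or 2 Us (-1.07 points), and of mpn1Δ tU6-C36A for 1 or 2 Us (-0.0340 points). In adenylated share, leaving out 4-nt ends, which removes the end with 3 Us and 1 A, ended the call of mpn1Δ against wt (3.30 points), mpn1Δrrp6Δ against rrp6Δ (3.58 points), cid14Δmpn1Δ against cid14Δ (0.790 points) and against mpn1Δ (-3.18 points), wt without against with PNK (4.04 points), tU6-C36A against tU6-wt in tagged U6 (-2.34 points) and tagged against endogenous U6 of tU6-wt (3.04 points). It turned the sign of tagged against endogenous U6 in mpn1Δ tU6wt (-31.7 points), mpn1Δ tU6-C36A (-1.13 points) and over 4 strains (-7.20 points). Dropping the final C turned these too (-19.1, -5.36 and -2.09 points), as well as tU6-C36A against tU6-wt in endogenous U6 (0.512 points), and mpn1Δ tU6-C36A against tU6-C36A there then passed the limit (8.10 points). Any tail turned the difference over 4 strains (-2.42 points).

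For mpn1 over 13 libraries, none of the 5 outcomes passed 0.05 after adjustment under any setting. The adenylated share turned for 1 or 2 Us (-4.37 points), the 1-U share with no A (2.50 points) and for 1 or 2 Us (0.0314 points), and tails of at least 2 As with the final C dropped (-6.36 points), in 6 untagged libraries (-2.99 points) and with tagged U6 (-19.6 points, -15.4 points over pairs). Tagged minus endogenous U6 turned for 1 or 2 Us in the 1-U share (2.62 points) and in tails of at least 2 As (4.99 points). The difference in adenylation between short and longer ends lost its call with the final C dropped (-19.0 points), with any tail (-13.5 points) and with tagged U6 (-19.7 points), and ranged from -25.3 to -17.6 points with 1 library left out. The causes were not tested. Other alternatives kept direction and side of the limit: 459 of the 506 values computed. Some outcomes have no value in a setting by construction, such as adenylation with no A.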

Other observations

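Short U runs with other tails, which lie outside the rule, held 0.106% to 3.54% of reads. They differed in kind between strains. Tails that start with C made up 75.5% of them in cid14Δ, 45.7% in mpn1Δ and 50.1% in rrp6Δ, against 55.7% in wt. Tails of As followed by Us made up 69.4% in cid11Δ, 49.8% in cid12Δ and 72.1% in cid16Δ, against 19.7% in wt, and 59.3% in wt without PNK. As a share of reads with an end sequence, tails that start with C held 1.01% in cid14Δ against 0.365% in wt, and tails of As followed by Us 0.0408% against 0.129%. In cid11Δ, cid12Δ and cid16Δ tails of As followed by Us held 0.224%, 0.148% and 0.241% of these reads, against 0.129% in wt. Plain short ends were rarer in these strains than in wt. The wt library without PNK, which had a like share of ends with an N, held 0.818% in such tails. Tagged U6 of tU6-C36A had 2.66% in such tails against 0.461% in that of tU6-wt, and 9008 of its reads had 3 Us, 2 As and 1 U.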
